A study of Mus musculus with 8 samples.

Results

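The enzymes that write and remove methyl groups on cytosine were followed here through 9 genes: the methyltransferase genes Dnmt1, Dnmt3a, Dnmt3b and Dnmt3l, the maintenance factor gene Uhrf1, the dioxygenase genes Tet1, Tet2 and Tet3, and the DNA glycosylase gene Tdg. All array probes whose transcript accession RefSeq assigns to these genes were taken, which gave 16 of 41174 probes, and 9 of the 18842 genes that could be named. The cells were N31, mouse neural progenitor cells (NPC) derived from embryonic stem cells and kept in medium with EGF and bFGF at 10 ng/ml each. They were made to express either W20 or, as the control, the green fluorescent protein EGFP, in a series that, as titled, is about speeding reprogramming by means of bacterial proteins. The 4 groups were W20 cells 72 h after the start of reprogramming, EGFP cells at 72 h, W20 NPC and EGFP NPC, with 2 arrays each. Both 72 h groups had received Dox at 40 ng/ml, for 48 h in the progenitor medium and for 24 h in a medium with 10% KSR and LIF at 1000 U/ml. The labels do not say whether the 2 replicates of a group were separate cultures, and the spread behind each p-value is only that between arrays, which may be technical.

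In mammals, cytosine in CpG pairs is methylated by 2 kinds of enzyme activity. Dnmt1 copies the pattern onto the new DNA strand during replication, and Uhrf1 binds the half-methylated sites and recruits it. Dnmt3a and Dnmt3b place methyl groups on unmethylated DNA, with Dnmt3l as a partner that lacks activity of its own. Tet proteins oxidise the methyl group, and Tdg cuts out the most oxidised bases so that base excision repair can restore plain cytosine. Changes in DNA methylation accompany the loss of a somatic identity during reprogramming, and Dnmt3a and the Tet proteins are also known for their roles in neural cells.

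A level below is the log2 of a probe's processed signal minus that array's 75th percentile, so that 0 means as bright as the 75th percentile of the array. Levels of different probes are not compared, because probes differ in how well they bind. A summed level of markers adds the unlogged levels of the brightest probe of each marker and takes the log2. The brightest markers of a set therefore weigh most in it. A difference is a log2 difference of group means ± its standard error (SE), with 2 arrays per group, from 1 limma fit over the 8 arrays. Adjusted p-values are Benjamini-Hochberg over the 25725 probes tested, and a probe was called at an adjusted p under 0.05. All 16 probes passed the filter on dim probes, which keeps a probe if the 2 arrays of any 1 group both read it well above background. Where a gene has several probes, the one with the highest mean over all 8 arrays stands for the gene in counts.

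Between 57.0% and 62.4% of spots per array were well above background and the 75th percentile lay at 827 to 938 intensity units. All 4 NPC arrays lay on 1 slide and all 4 arrays at 72 h on another, so slide and stage cannot be told apart. On both slides the EGFP arrays took positions 1 and 2 and the W20 arrays positions 3 and 4, so position and W20 cannot be told apart either. Of 12 neural progenitor markers, 8 were well above background on all 8 arrays, among them Nes, Vim, Sox2 and Pax6. Fabp7 and Ptprz1 were so on 5 arrays, Hes5 on 2 and Olig2 on 0. Of 8 pluripotency markers on the array, Zfp42, Dppa5a, Utf1 and Sall4 were well above background on all 8 arrays, Esrrb on 6 and Tdgf1 on 1, while Pou5f1 and Lin28a were so on 0. The 6 mesenchymal markers had a summed level of 3.23 and 3.24 in W20 cells at 72 h, against 4.07 and 4.05 in EGFP cells, and of 3.13 and 3.09 in W20 NPC, against 4.52 and 4.72 in EGFP NPC. Their part in the results below was not tested. In such bulk samples, fewer cells of a type and less RNA per cell cannot be told apart.

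RefSeq's promoter windows for the 9 genes (GRCm38.p6, 250 bases before to 50 bases after a start site) give the sequence context of the 2 patterns described below. Dnmt1 and Uhrf1, which differed with W20 by the same amount at both stages, are shown because a window of each holds an E2F core (TTCCCGC or TTGGCGC, both strands), a motif found in 6.81% of 32851 mouse windows. Dnmt3a and Tdg, which rose over the 72 h by their brightest probes, are shown because a window of each holds the E-box CACGTG, found in 7.15% of windows. The windows of Dnmt3b, Tet2 and Tet3, which rose as well, hold no E-box. Capitals mark these motifs, which do not overlap each other or a GC box (GGGCGG, both strands, in 35.7% of windows), and the sequences run 5′ to 3′ on the gene's strand.
Dnmt1, chr9:20952574-20952873, minus strand: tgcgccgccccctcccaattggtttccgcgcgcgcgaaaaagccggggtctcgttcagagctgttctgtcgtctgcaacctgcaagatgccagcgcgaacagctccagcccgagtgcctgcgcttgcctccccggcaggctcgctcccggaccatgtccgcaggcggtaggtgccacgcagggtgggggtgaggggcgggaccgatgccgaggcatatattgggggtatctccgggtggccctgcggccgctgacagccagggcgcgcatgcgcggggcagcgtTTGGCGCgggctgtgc
Uhrf1, chr17:56303087-56303386, plus strand: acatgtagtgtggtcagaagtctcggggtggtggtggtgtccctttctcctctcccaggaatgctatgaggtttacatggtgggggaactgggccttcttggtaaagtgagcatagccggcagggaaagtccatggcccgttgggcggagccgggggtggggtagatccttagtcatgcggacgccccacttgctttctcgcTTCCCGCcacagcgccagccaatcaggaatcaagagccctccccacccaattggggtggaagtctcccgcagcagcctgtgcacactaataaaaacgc
Dnmt3a, chr12:3891494-3891793, plus strand: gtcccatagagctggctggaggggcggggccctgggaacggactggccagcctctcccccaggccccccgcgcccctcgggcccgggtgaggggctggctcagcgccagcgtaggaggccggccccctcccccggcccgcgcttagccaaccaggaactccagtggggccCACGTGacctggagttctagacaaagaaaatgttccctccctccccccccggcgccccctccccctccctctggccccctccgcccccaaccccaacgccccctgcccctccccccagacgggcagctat
Tdg, chr10:82629588-82629887, plus strand: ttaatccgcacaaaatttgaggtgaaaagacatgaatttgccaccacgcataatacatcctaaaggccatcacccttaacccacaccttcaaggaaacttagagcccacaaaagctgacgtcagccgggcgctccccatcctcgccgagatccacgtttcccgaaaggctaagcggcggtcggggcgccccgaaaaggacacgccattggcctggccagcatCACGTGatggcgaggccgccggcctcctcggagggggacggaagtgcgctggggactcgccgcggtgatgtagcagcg

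The E2F core began at position 35 from the start site in Dnmt1 and at -48 in Uhrf1, and the E-box at -80 in Dnmt3a and -28 in Tdg. The windows shown held 33 CpG pairs in Dnmt1, 12 in Uhrf1, 18 in Dnmt3a and 26 in Tdg, against a median of 7 over all windows. The other windows of Dnmt1 held 12 and 2 CpG pairs and the other window of Uhrf1 held 33, all without an E2F core or E-box. The motif shares given above are per window, not per gene. Dnmt3a, a gene spanning chr12:3801559-3914443, has 2 more windows at its upstream start sites, with 46 and 47 CpG pairs and neither motif. The CpG count was highest in the window of Tet2, at 57, as many as or more than in 99.9% of windows. An E-box also lay in 1 of 3 windows of Dnmt3l. A motif match describes the letters in a window and says nothing about what binds there.

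**Figure D1:**
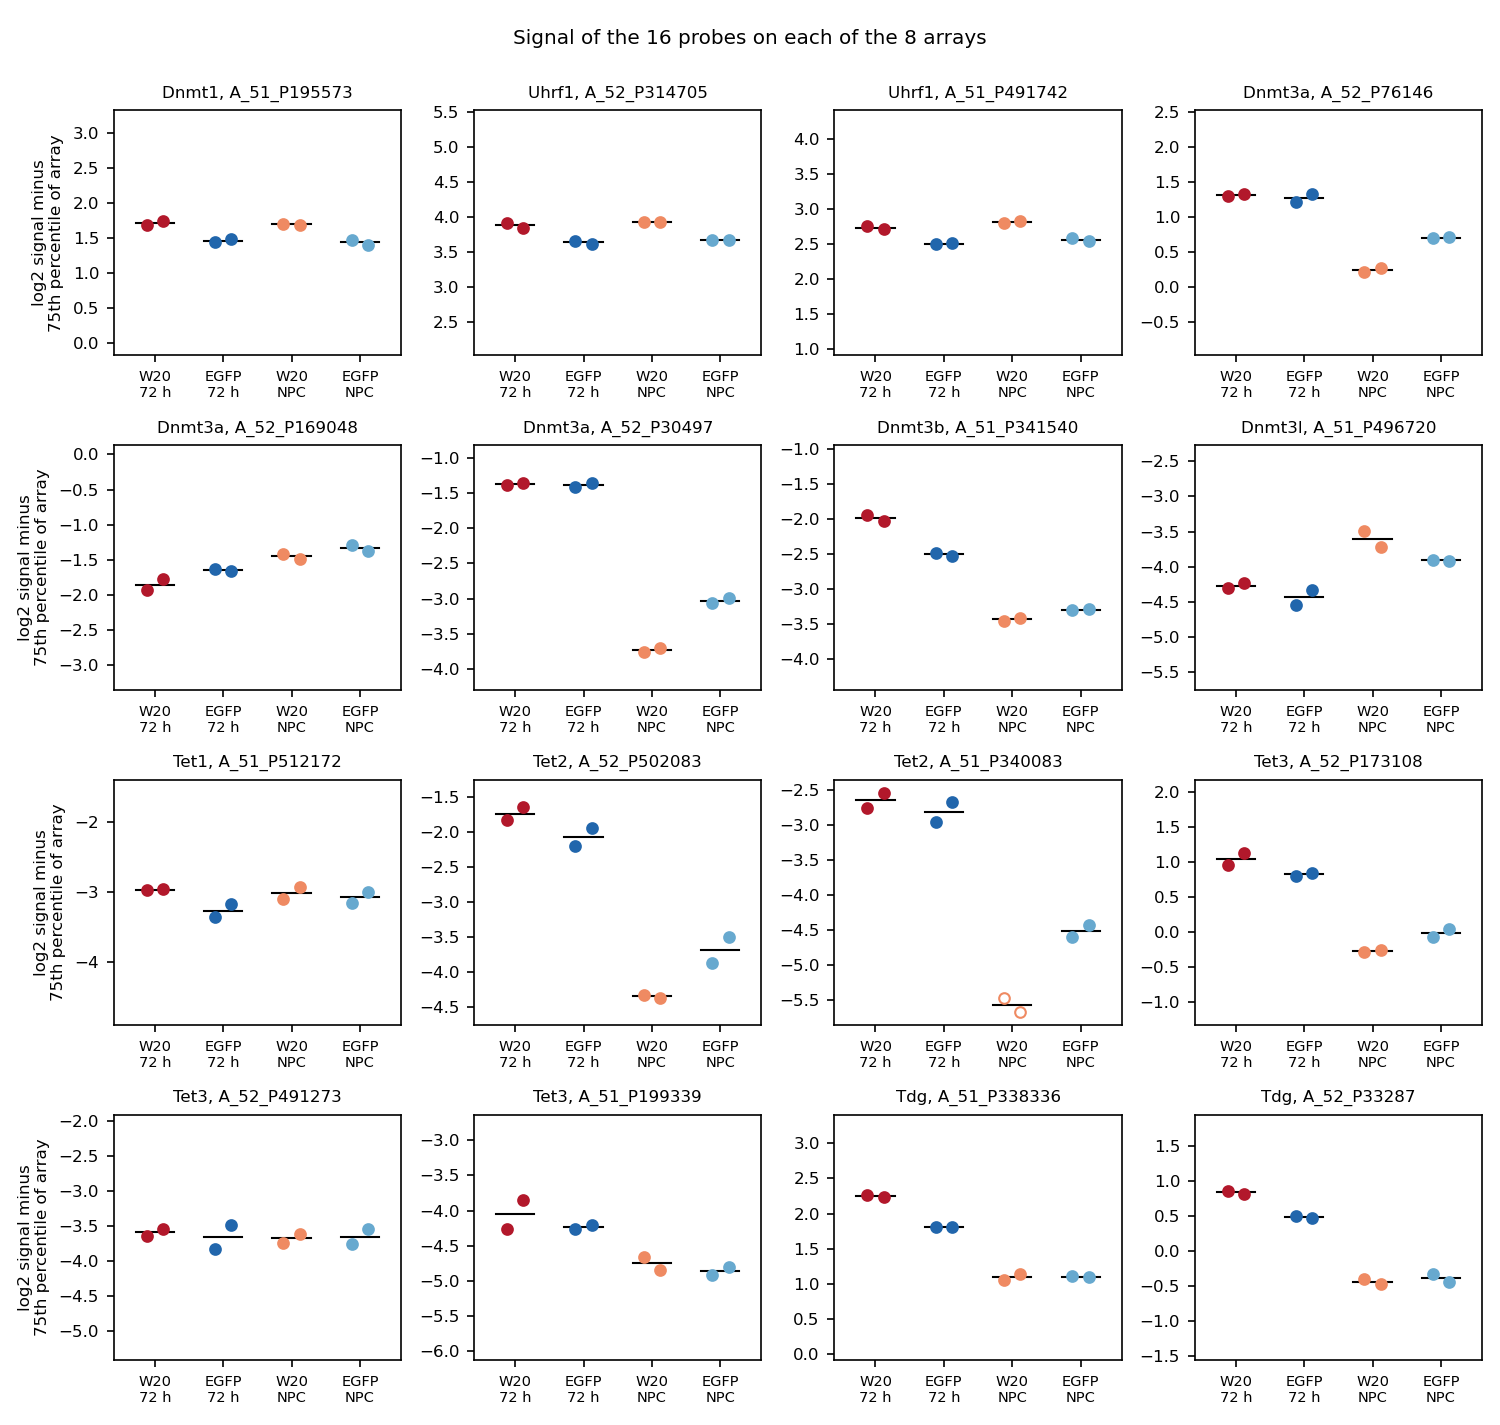
Level of each of the 16 probes (log2 processed signal minus the array's 75th percentile, y axis) on every array of the 4 groups (x axis). Points are arrays, bars are group means, open points mark a group in which the probe was not well above background on either array, and all panels span the same 3.5 log2 units. Dnmt1 and Uhrf1 are higher in both W20 groups, while Dnmt3b, Tet2 and Tdg are higher in both 72 h groups.

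Set against EGFP cells at 72 h, W20 cells had 4 of the 9 genes higher and 0 lower, and 5 were not called. These were Dnmt1, Uhrf1, Dnmt3b and Tdg. The share called over all 13617 genes tested by their brightest probe was 49%, with 26.1% higher and 22.8% lower, so the count is near the background. The median difference of the 9 genes was 0.25, against 0.03 over all genes. In NPC, W20 cells had Dnmt1 and Uhrf1 higher, and Dnmt3a, Dnmt3b, Tet2 and Tet3 lower, than EGFP cells. That is 2 genes higher and 4 lower of 9, where 51.6% of all genes were called, 29.6% higher and 22.1% lower. With spike-in scaling 2 genes were called at 72 h and 2 in NPC. Calls over all 25725 probes fell too, from 10929 to 5435 at 72 h and from 11782 to 6534 in NPC. Counted by probe, 6 were higher and 1 lower of 16 at 72 h, where 42.5% of all probes were called, 23.3% and 19.2%, and 3 were higher and 6 lower in NPC, where 45.8% were called, 26.6% and 19.2%.

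Dnmt1, on chromosome 9, is read by 1 probe. Its level was 1.68 and 1.74 on the W20 arrays at 72 h, against 1.44 and 1.48 on the EGFP arrays. In NPC it was 1.69 and 1.69 with W20, against 1.47 and 1.40 with EGFP. The W20 and EGFP arrays did not overlap at either stage. The difference was 0.25 ± 0.042 at 72 h (1.19-fold, limma adjusted p = 0.00624) and 0.25 ± 0.042 in NPC (1.19-fold, adjusted p = 0.00527).

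Uhrf1, on chromosome 17, has 2 probes that moved alike. On the brighter one the level was 3.92 and 3.84 in W20 cells at 72 h, against 3.66 and 3.62 in EGFP cells, and 3.92 and 3.93 in W20 NPC, against 3.67 and 3.68 in EGFP NPC. Again every W20 array lay above every EGFP array. The difference was 0.24 ± 0.039 at 72 h (adjusted p = 0.00601) and 0.25 ± 0.039 in NPC (adjusted p = 0.00456), and the second probe gave 0.23 and 0.25, also called. Quantile normalization made it 0.16 at both stages on the brighter probe, still called.

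The W20 effects on this maintenance pair did not differ detectably between the stages, with a difference of -0.00 ± 0.059 for Dnmt1 and -0.01 ± 0.055 for Uhrf1. Nor was either gene called between 72 h and NPC, except Uhrf1 with quantile normalization (-0.10 in both W20 and EGFP cells on the brighter probe) and, on its second probe in W20 cells, with a trended prior (-0.08, adjusted p = 0.0471). With arrays scaled to the spike-in controls, the calls of both genes ended at 72 h (adjusted p = 0.156 for Dnmt1, 0.0996 and 0.122 for the Uhrf1 probes) and in NPC (adjusted p = 0.116, 0.0622 and 0.0712). The differences themselves moved little under that scaling. In the same order they were 0.22, 0.20 and 0.19 at 72 h and 0.24, 0.23 and 0.23 in NPC. Of 13 S phase and proliferation markers, 8 were higher and 0 lower in W20 cells at 72 h, and 11 were higher and 0 lower in NPC, where 26.1% and 29.6% of all genes were higher. With spike-in scaling 2 were called at 72 h and 5 in NPC. Calls over all probes also fell under that scaling, from 10929 to 5435 at 72 h and from 11782 to 6534 in NPC. The summed level of the 13 markers was 8.20 and 8.18 in W20 cells at 72 h, against 8.002 and 7.97 in EGFP cells, and 8.13 and 8.17 in W20 NPC, against 7.91 and 7.86 in EGFP NPC. All 13 were well above background on every array, and their part in the higher Dnmt1 and Uhrf1 levels was not tested.

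**Figure D2:**
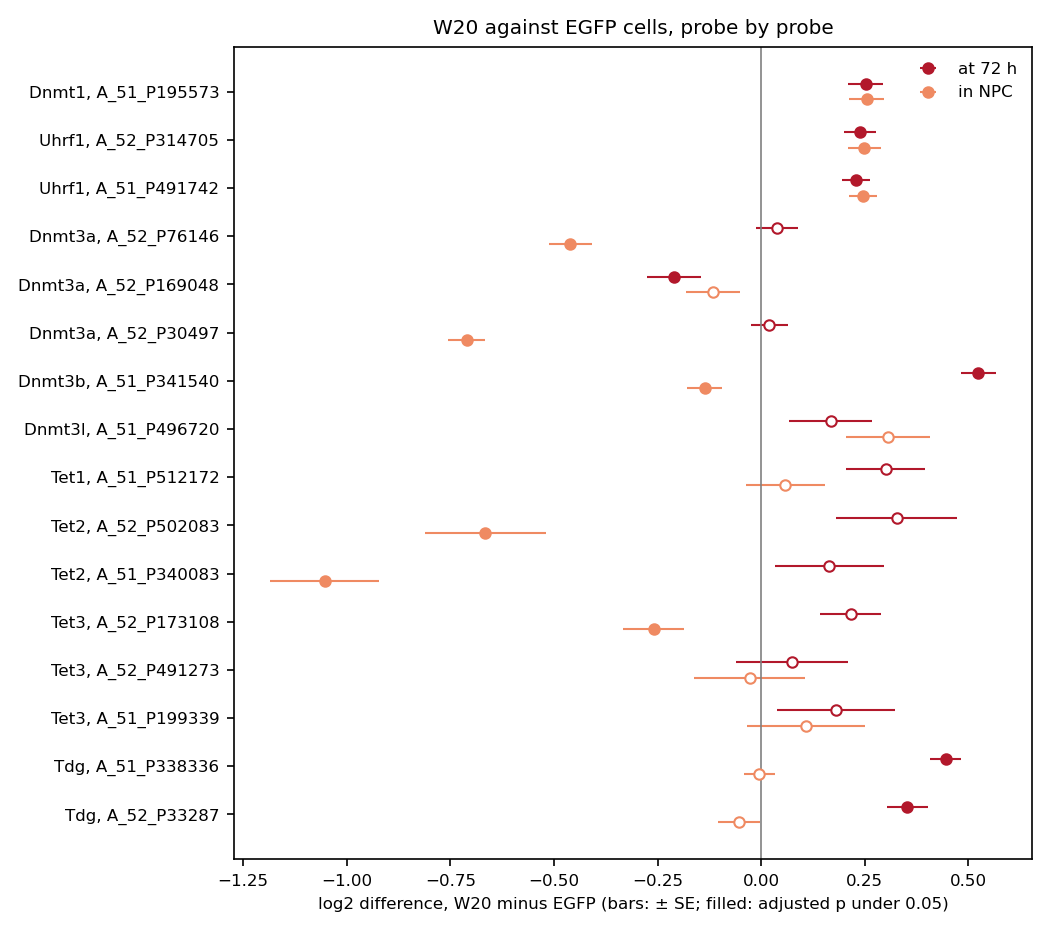
Difference between W20 and EGFP cells (x axis, log2, W20 minus EGFP) for each probe (y axis) at 72 h and in NPC, 2 arrays per group. Points are fitted differences, bars are ± SE, and filled points have an adjusted p under 0.05. The 3 probes of Dnmt1 and Uhrf1 lie between 0.23 and 0.25 at both stages, whereas the brightest probes of Dnmt3a, Dnmt3b, Tet2 and Tet3 lie below 0 in NPC.

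Dnmt3a, the de novo enzyme encoded on chromosome 12, has 3 probes, which did not agree. On the brightest the level was 1.29 and 1.32 in W20 cells at 72 h, against 1.20 and 1.33 in EGFP cells, and 0.21 and 0.27 in W20 NPC, against 0.69 and 0.71 in EGFP NPC. The W20 arrays were thus low in NPC and overlapped the EGFP arrays at 72 h. In NPC the level fell by 0.46 ± 0.051 with W20 (1.38-fold, adjusted p = 0.0015), while at 72 h the difference was 0.04 ± 0.051 (adjusted p = 0.58).

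A second probe of Dnmt3a, A_52_P30497, showed the same order of groups with a wider range. Its level was -1.38 and -1.35 in W20 cells at 72 h, against -1.41 and -1.36 in EGFP cells, and -3.77 and -3.71 in W20 NPC, against -3.07 and -2.99 in EGFP NPC. It fell by 0.71 ± 0.045 with W20 in NPC (1.64-fold, adjusted p = 3.59e-04), or by 0.45 with normexp background correction. The third, A_52_P169048, ran the other way over time. It stood at -1.93 and -1.78 in W20 cells at 72 h, against -1.63 and -1.66 in EGFP cells, and at -1.42 and -1.49 in W20 NPC, against -1.29 and -1.38 in EGFP NPC. W20 cells were lower at 72 h by this probe (-0.21 ± 0.065, adjusted p = 0.0471), a call that ended under 14 of 18 alternatives and gave -0.13 without W20 72 h replicate 1 (adjusted p = 0.163). In the files A_52_P30497 and A_52_P169048 carry 1 transcript accession and the brightest probe, A_52_P76146, another; which transcript forms each probe reads was not tested.

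Dnmt3b, the other de novo enzyme, on chromosome 2, is read by 1 probe. Its level was -1.94 and -2.03 in W20 cells at 72 h, against -2.49 and -2.53 in EGFP cells, and -3.45 and -3.42 in W20 NPC, against -3.31 and -3.29 in EGFP NPC. The W20 arrays lay above the EGFP arrays at 72 h and below them in NPC. At 72 h it rose by 0.52 ± 0.042 (1.44-fold, adjusted p = 6.96e-04), a call kept under all 19 alternatives. In NPC it was lower by a small amount (-0.14 ± 0.042, adjusted p = 0.0449), and this call ended under 15 of 21 alternatives, among them median scaling (-0.09, adjusted p = 0.331). It also ended without any 1 array other than those of W20 at 72 h (adjusted p = 0.0729 to 0.172).

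Dnmt3l, the inactive partner on chromosome 10, gave a dim signal of 40.3 to 78.3 intensity units. The level was -4.30 and -4.24 in W20 cells at 72 h, against -4.54 and -4.34 in EGFP cells, and -3.49 and -3.73 in W20 NPC, against -3.91 and -3.92 in EGFP NPC. The W20 arrays were the higher ones at both stages, but the differences of 0.17 ± 0.101 (adjusted p = 0.232) and 0.31 ± 0.101 (adjusted p = 0.0535) were not called. In NPC it was called under 5 of 21 alternatives, such as median scaling (0.36, adjusted p = 0.0365).

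Of the Tet genes, Tet1 on chromosome 10 was not called in any of the 5 comparisons. Its level was -2.97 and -2.96 in W20 cells at 72 h, against -3.36 and -3.17 in EGFP cells, and -3.10 and -2.94 in W20 NPC, against -3.16 and -3.00 in EGFP NPC. The groups were apart at 72 h and overlapped in NPC. The difference of 0.30 ± 0.095 at 72 h missed the threshold (adjusted p = 0.051) and was called under 6 of 19 alternatives, among them adjustment over the brightest probe of each gene (adjusted p = 0.038). In NPC the difference was 0.06 ± 0.095 (adjusted p = 0.655).

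Tet2, on chromosome 3, was lower in W20 NPC on both of its probes. The brighter one had levels of -1.84 and -1.65 in W20 cells at 72 h, against -2.19 and -1.94 in EGFP cells, and of -4.33 and -4.36 in W20 NPC, against -3.86 and -3.50 in EGFP NPC. The second had -2.75 and -2.54 in W20 cells at 72 h, against -2.95 and -2.68 in EGFP cells, and -5.46 and -5.66 in W20 NPC, against -4.59 and -4.43 in EGFP NPC. In NPC the W20 arrays lay below the EGFP arrays on both probes, whereas at 72 h they lay above them on the brighter probe and overlapped them on the second.

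On the brighter probe Tet2 fell by 0.67 ± 0.147 in W20 NPC (1.59-fold, adjusted p = 0.0149), or by 0.42 with normexp. It was not called when EGFP NPC replicate 2 (-0.48, adjusted p = 0.057) or either W20 NPC array (adjusted p = 0.059 and 0.0722) was left out. The second probe was not well above background on either W20 NPC array. By it Tet2 was at least 1.87-fold lower (adjusted p = 0.00217); such a bound sets the brighter group against, per array, the higher of the dim probe's own signal and the lowest signal well above background. With normexp the fitted difference of this probe was smaller than that bound, at -0.43 (adjusted p = 0.0372). At 72 h the differences were 0.33 ± 0.147 (adjusted p = 0.129) and 0.16 ± 0.132 (adjusted p = 0.358).

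Tet3, on chromosome 6, has 3 probes. On the brightest the level was 0.95 and 1.13 in W20 cells at 72 h, against 0.80 and 0.85 in EGFP cells, and -0.29 and -0.26 in W20 NPC, against -0.08 and 0.04 in EGFP NPC. The W20 arrays were above the EGFP arrays at 72 h and below them in NPC. The difference was 0.22 ± 0.073 at 72 h (adjusted p = 0.0614), not called but called under 6 of 19 alternatives, such as without W20 72 h replicate 1 (0.31, adjusted p = 0.0295). In NPC it was -0.26 ± 0.073 (1.2-fold lower with W20, adjusted p = 0.0332). The NPC call ended with spike-in scaling (adjusted p = 0.128), with dim probes kept in the test (adjusted p = 0.0796), and without EGFP NPC replicate 2, either W20 NPC array or either EGFP 72 h array (adjusted p = 0.0601 to 0.151). The other 2 probes, at 29.2 to 80.1 intensity units, were not called with W20 at either stage, though A_51_P199339 was called at 72 h without W20 72 h replicate 1 (adjusted p = 0.044, against 0.353 with all arrays).

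Tdg, the glycosylase that ends the oxidative route, lies on chromosome 10 and has 2 probes that moved alike. On the brighter one the level was 2.27 and 2.24 in W20 cells at 72 h, against 1.81 and 1.80 in EGFP cells, and 1.06 and 1.13 in W20 NPC, against 1.11 and 1.09 in EGFP NPC. The second had 0.85 and 0.81 in W20 cells at 72 h, against 0.49 and 0.46 in EGFP cells, and -0.41 and -0.47 in W20 NPC, against -0.33 and -0.44 in EGFP NPC. On both probes the W20 arrays stood apart at 72 h and overlapped the EGFP arrays in NPC. At 72 h Tdg rose by 0.45 ± 0.038 with W20 (1.36-fold, adjusted p = 8.15e-04) and by 0.35 ± 0.051 on the second probe (adjusted p = 0.00393), while in NPC the differences were -0.00 ± 0.038 and -0.05 ± 0.051. Both calls at 72 h were kept under every alternative run.

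Over the 72 h, Dnmt3a, Dnmt3b, Tet2, Tet3 and Tdg rose by their brightest probes in both kinds of cells, and Dnmt3l fell. In W20 cells 5 of 9 genes were higher and 1 lower than in NPC, where 73.2% of all genes were called, 36.7% higher and 36.5% lower. In EGFP cells the counts were also 5 and 1, where 67.7% of all genes were called, 35% higher and 32.7% lower. By probe, 9 were higher and 2 lower of 16 in each, against 34% and 35.7% of all probes in W20 cells (69.7% called) and 32.1% and 31.3% in EGFP cells (63.4% called). The median over the 9 genes was 1.06 in W20 cells and 0.57 in EGFP cells, against 0.01 over all genes in both. These changes lie between slides as well as between stages. Markers of other neural cell types moved too: the 5 astrocyte markers had a summed level of 0.36 and 0.33 in W20 cells at 72 h, against 2.15 and 2.06 in W20 NPC, and of 0.91 and 0.87 in EGFP cells at 72 h, against 3.47 and 3.64 in EGFP NPC. The 5 oligodendrocyte markers stood at 2.16 and 2.14 in W20 cells at 72 h, against 1.02 and 1.09 in W20 NPC, and at 1.80 and 1.85 in EGFP cells at 72 h, against 1.15 and 1.17 in EGFP NPC. The 5 neuron markers stood at 1.38 and 1.19 in W20 cells at 72 h, against -0.12 and -0.08 in W20 NPC. In EGFP cells they stood at 0.65 and 0.62 at 72 h, against 0.35 and 0.43 in NPC. Of these 5, Tubb3 and Map2 were well above background on all 8 arrays, Dcx and Rbfox3 on 3 and Snap25 on 0. Of 3 neuron markers tested, 2 were higher and 0 lower over the 72 h in W20 cells, and 1 higher and 0 lower in EGFP cells. Map2 stood at -0.43 and -0.45 in EGFP cells at 72 h, against -0.30 and -0.11 in EGFP NPC. Of 4 astrocyte markers tested, 1 was higher and 3 lower over the 72 h in W20 cells, and 0 higher and 4 lower in EGFP cells. The higher one was Gfap, well above background only on the 2 EGFP NPC arrays. It passed the filter through that group alone, so its rise in W20 cells is not a measured change. Its fall in EGFP cells starts from the group that let it into the test. Of 4 oligodendrocyte markers tested, 2 were higher and 1 lower in each kind of cell. The part of these markers in the changes of the 9 genes was not tested.

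**Figure D3:**
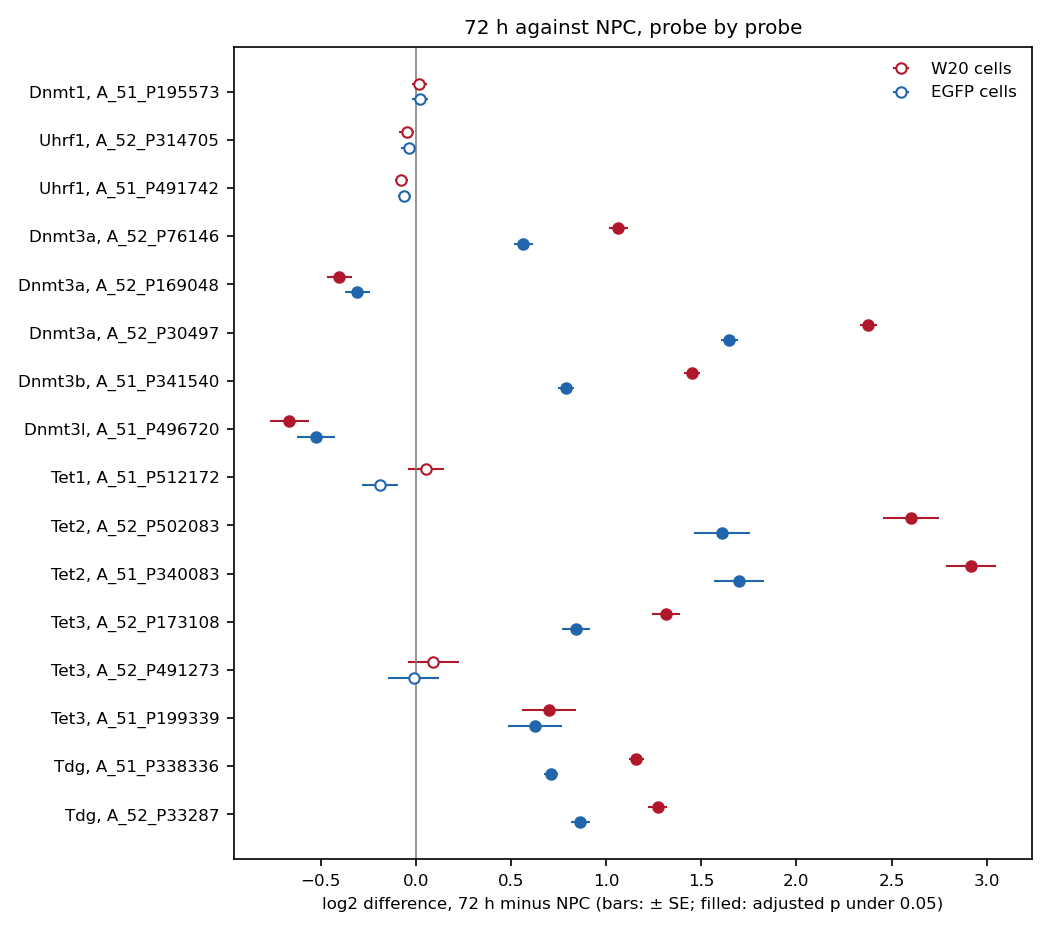
Change between 72 h and NPC (x axis, log2, 72 h minus NPC) for each probe (y axis) in W20 cells and in EGFP cells, 2 arrays per group. Points are fitted differences, bars are ± SE, and filled points have an adjusted p under 0.05. For Dnmt3b, Tet2 and Tdg the W20 point lies to the right of the EGFP point, and Dnmt1 and Uhrf1 lie near 0 in both.

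Among the brightest probes of the 9 genes, the widest change was that of Tet2. It rose by 2.60 ± 0.147 in W20 cells (6.07-fold, adjusted p = 3.39e-05) and by 1.61 ± 0.147 in EGFP cells (3.05-fold, adjusted p = 2.95e-04). Its second probe was at least 6.78-fold higher in W20 cells and rose by 1.70 ± 0.132 in EGFP cells. With normexp the brighter probe gave 1.63 and 0.92 and the second 1.29 and 0.70, all called, so that the bound of the second probe does not hold under that correction. Dnmt3b rose by 1.45 ± 0.042 in W20 cells (2.73-fold) and by 0.79 ± 0.042 in EGFP cells (1.73-fold), or by 0.93 and 0.35 with normexp.

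Dnmt3a rose by 1.06 ± 0.051 in W20 cells (2.09-fold) and by 0.57 ± 0.051 in EGFP cells (1.48-fold) on its brightest probe, and on A_52_P30497 by 2.38 ± 0.045 (5.19-fold) and 1.65 ± 0.045 (3.13-fold). The size on A_52_P30497 depended on the processing, with 1.61 in W20 cells and 1.14 in EGFP cells as the lowest values under any alternative. On A_52_P169048 Dnmt3a fell by 0.40 ± 0.065 in W20 cells and by 0.31 ± 0.065 in EGFP cells, so no single direction holds for the gene. That fall in EGFP cells was not called with spike-in scaling (adjusted p = 0.0812) or without EGFP NPC replicate 1 (adjusted p = 0.0501).

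Tet3 rose by 1.32 ± 0.073 in W20 cells (2.49-fold) and by 0.84 ± 0.073 in EGFP cells (1.79-fold) on its brightest probe. A_51_P199339 rose by 0.70 ± 0.142 and 0.63 ± 0.142, of which normexp left 0.35 in W20 cells and 0.02 in EGFP cells (adjusted p = 0.88). In EGFP cells its call was also lost when EGFP NPC replicate 1 (adjusted p = 0.0608) or EGFP 72 h replicate 2 (adjusted p = 0.0547) was left out. A_52_P491273 was not called in either kind of cell (0.09 ± 0.134 in W20 cells and -0.01 ± 0.134 in EGFP cells).

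Tdg rose by 1.16 ± 0.038 in W20 cells (2.23-fold) and by 0.71 ± 0.038 in EGFP cells (1.64-fold), and its second probe by 1.27 and 0.86. Dnmt3l fell by 0.66 ± 0.101 in W20 cells and by 0.53 ± 0.101 in EGFP cells, with -0.28 in W20 cells under normexp. Tet1 was not called (0.05 ± 0.095 in W20 cells and -0.19 ± 0.095 in EGFP cells). Dnmt1 and Uhrf1 differed from NPC by at most 0.08 in size on any probe in both kinds of cells, with no call.

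Whether the response to W20 depended on the stage was tested as the W20 effect at 72 h minus that in NPC. The effect was higher at 72 h for 5 of 9 genes, Dnmt3a, Dnmt3b, Tet2, Tet3 and Tdg, and lower for 0, where 25.9% of all genes were called, 11.9% higher and 14.1% lower. By probe, 8 of 16 were higher and 0 lower, where 21.9% of all probes were called, 10.3% and 11.6%. The median over the 9 genes was 0.45, against -0.02 over all genes. The count of genes was 2 with spike-in scaling, where calls over all probes fell from 5623 to 2137. The difference of W20 effects uses the same 8 arrays as the W20 effects and the changes over time given above.

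Dnmt3b had a difference of W20 effects of 0.66 ± 0.060 (adjusted p = 0.0022), called under every alternative run. For Dnmt3a it was 0.50 ± 0.072 on the brightest probe (adjusted p = 0.00841, and 0.0595 with spike-in scaling) and 0.73 ± 0.063 on A_52_P30497 (adjusted p = 0.00195), where normexp gave 0.47. The third probe gave -0.09 ± 0.092 (adjusted p = 0.512). Tdg had 0.45 ± 0.054 (adjusted p = 0.00466, and 0.0671 with spike-in scaling). Its second probe had 0.41 ± 0.071 (adjusted p = 0.0151).

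Tet2 had 0.99 ± 0.208 (adjusted p = 0.0254) on its brighter probe. The second probe gave a fitted 1.22 ± 0.186 (adjusted p = 0.00997), or 0.59 with normexp (adjusted p = 0.067), but it was not well above background on either W20 NPC array, so the size of this difference is not measured. Tet3 had 0.48 ± 0.103 on its brightest probe (adjusted p = 0.0281). The calls of Tet2 by its brighter probe, of Tet3 and of the second Tdg probe were the weakest. For Tet2 the call ended without EGFP NPC replicate 2, either W20 NPC array, EGFP 72 h replicate 1 or W20 72 h replicate 2 (adjusted p = 0.0531 to 0.0829), and for Tet3 without EGFP NPC replicate 2, either W20 NPC array or either EGFP 72 h array (adjusted p = 0.0733 to 0.0956). For the second Tdg probe it ended without W20 NPC replicate 2 or either EGFP 72 h array (adjusted p = 0.0531 to 0.058).

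The other genes of the methylation cycle were described by lists chosen for their roles. List counts under alternatives are to be read beside the calls over all probes. With spike-in scaling those fell from 10929 to 5435 at 72 h and from 11782 to 6534 in NPC. They also fell in both W20 comparisons whichever array was left out. Supply of the methyl donor was the list with the most higher genes: of 16 tested genes for S-adenosylmethionine and one-carbon metabolism, 9 were higher and 1 lower in W20 cells at 72 h (median 0.25), and 10 were higher and 0 lower in NPC (median 0.32). Over all genes 26.1% were higher at 72 h and 29.6% in NPC. Mthfd2, a mitochondrial folate enzyme, rose by 1.30 ± 0.077 at 72 h (2.46-fold) and by 0.91 ± 0.077 in NPC (1.88-fold). At 72 h Shmt2, which feeds serine carbon into the folate cycle, rose by 0.70 ± 0.062, and Mthfd1l, which makes mitochondrial formate, by 0.54 ± 0.047. In NPC Mtrr, which keeps methionine synthase active, rose by 0.51 ± 0.043 (0.27 with normexp), and Amd1, which consumes S-adenosylmethionine for polyamines, by 0.52 ± 0.104. The call of Amd1 ended with normexp (0.21, adjusted p = 0.113) and without EGFP NPC replicate 2 (adjusted p = 0.059). At 72 h the list had 4 called genes with spike-in scaling and 6 without either EGFP 72 h array.

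Cofactors of methylation had 5 higher and 1 lower of 16 at 72 h and 4 higher and 3 lower in NPC, where 49% and 51.6% of all genes were called. With spike-in scaling 1 was called at 72 h and 2 in NPC. Zfp57, which guards methylation at imprinted loci, fell by 1.00 ± 0.132 at 72 h (2-fold), or by 0.45 with normexp. In NPC Hells, a remodeller that assists methylation, rose by 0.56 ± 0.044, and Pcna, the replication clamp, by 0.39 ± 0.062. Cdca7l, a Cdca7 paralogue, rose by 0.30 ± 0.066 in NPC and by 0.27 ± 0.066 at 72 h, each call ending under 5 alternatives, such as without W20 NPC replicate 1 in NPC (adjusted p = 0.0771), with normexp in NPC (0.16, adjusted p = 0.0677) and without any 1 of the 72 h arrays at 72 h (adjusted p = 0.0727 to 0.098). Uhrf2, a paralogue of Uhrf1, rose by 0.25 ± 0.067 at 72 h, which ended under 10 of 19 alternatives, with quantile normalization giving 0.16 (adjusted p = 0.0959) and without either EGFP NPC array, EGFP 72 h replicate 2 or either W20 72 h array (adjusted p = 0.059 to 0.115). Without EGFP 72 h replicate 2 or W20 72 h replicate 1, 3 genes of the list were called at 72 h, and without any 1 of the NPC arrays 3 in NPC.

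Partners of the Tet proteins had 4 higher and 1 lower of 11 at 72 h and 3 higher and 4 lower in NPC, against 49% and 51.6% of all genes called. With spike-in scaling 3 were called at 72 h and 4 in NPC. Cxxc5, a CXXC-domain protein that can bind Tet2, fell by 1.15 ± 0.045 at 72 h (2.23-fold) and by 0.41 ± 0.045 in NPC (1.33-fold). Cxxc4, its relative, fell by 1.34 ± 0.185 in NPC (2.54-fold). Hmces, which binds abasic sites in single-stranded DNA, rose by 0.58 ± 0.034 at 72 h. Idh3a, a subunit of the mitochondrial enzyme that makes their cosubstrate, rose by 0.53 ± 0.068 in NPC.

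Of 9 methyl-CpG readers, 0 were higher and 2 lower in W20 cells at 72 h, and 4 higher and 2 lower in NPC, where 49% and 51.6% of all genes were called. With spike-in scaling 1 was called at 72 h and 2 in NPC. Zbtb4, a zinc finger protein that binds methylated DNA, fell by 0.54 ± 0.052 at 72 h and by 0.31 ± 0.052 in NPC. In NPC Mbd3, of the NuRD complex, rose by 0.29 ± 0.057 and Zbtb38 by 0.28 ± 0.071. The call of Mbd3 was lost without replicate 2 of EGFP NPC (adjusted p = 0.0512) or of W20 NPC (adjusted p = 0.0569), and that of Zbtb38 when the fit lacked EGFP NPC replicate 2 or either W20 NPC array (adjusted p = 0.0886 to 0.114) and with normexp (0.15, adjusted p = 0.1). In NPC the list had 2 called genes without EGFP NPC replicate 2 and 3 without either W20 NPC array.

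Base excision repair and deaminase genes had 6 higher and 3 lower of 19 at 72 h and 7 higher and 3 lower in NPC, near the 49% and 51.6% of all genes called. With spike-in scaling 5 were called at 72 h. Apobec1, a cytidine deaminase, rose by 0.82 ± 0.044 at 72 h (1.76-fold) and by 1.00 ± 0.044 in NPC (2-fold). Apobec2 was at least 2.13-fold higher at 72 h, though the fitted difference with normexp was 0.46, below that bound. Apobec2 is 1 of the 6 higher genes, but it passed the filter only through W20 cells at 72 h, the group where it is high. Ung, which removes uracil from DNA, rose by 0.45 ± 0.055 at 72 h. In NPC the stress-induced Gadd45g rose by 0.82 ± 0.045 and its relative Gadd45b fell by 0.46 ± 0.045.

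**Figure D4:**
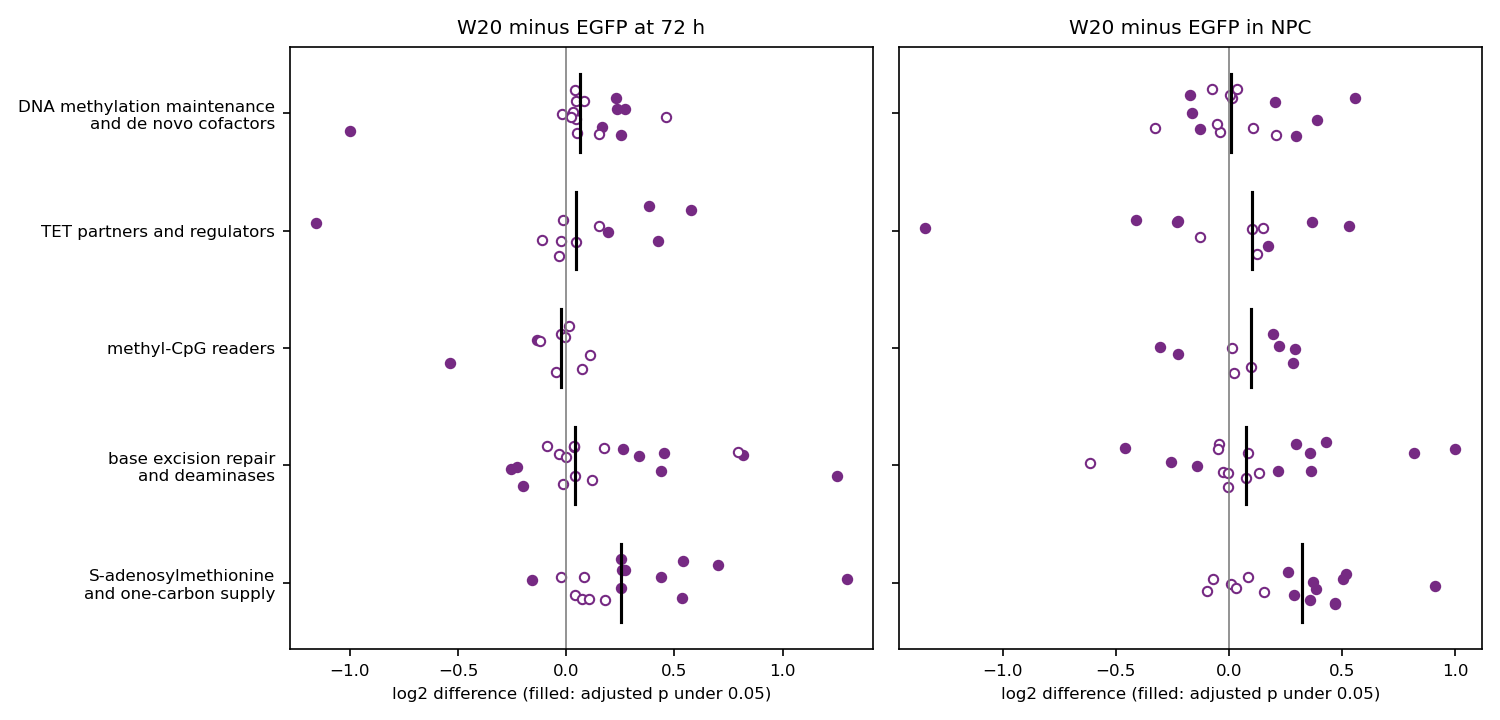
Difference between W20 and EGFP cells (x axis, log2, W20 minus EGFP) for tested genes of 5 lists (y axis) at 72 h on the left and in NPC on the right. Each point is the brightest probe of 1 gene, filled where the adjusted p was under 0.05, and the vertical bar is the list's median; fitted values are shown also for genes dim in 1 group, such as Apobec2. One-carbon genes lie mostly to the right of 0, with medians of 0.25 and 0.32.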

How the data were processed

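Total RNA labelled with Cy3 was hybridised to Agilent whole mouse genome arrays (4x44K), per the labels' protocols. The deposited scanner files hold spot intensity on a linear scale, background-corrected (processed signal), made, per the file headers, with version 10.7.3.1 of Agilent's extraction software. The deposited value table holds log2 values; its centring is not stated. Against the scanner arrays, its NPC columns equalled their own arrays after a shift of 9.66 to 9.71 (within 0.01 for 100% of probes), the direction being that of the signal. Column medians lay between -3.91 and -3.73. The 72 h columns of replicate 1 equalled the mean of the NPC columns, and those of replicate 2 the mean of both 72 h arrays, so the table served only as an alternative in NPC.

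Control and outlier spots were left out (95 to 137 outliers per array; none was saturated), spots of a probe averaged and log2 signals scaled to each array's 75th percentile over non-control spots. RefSeq (GRCm38.p6) named 27584 probes, and 13590 stayed unnamed. R 4.3.3 and limma 3.58.1 fitted group means and contrasts (lmFit and eBayes, with 4 residual degrees of freedom and 1.56 from the prior), two-sided. The fit was tested on simulated data. Precision is limited by the number of arrays: the median SE was 0.057, and replicate arrays correlated with r of 0.998 to 0.999. Members and lists were chosen with earlier results of these data known. All probes of the 9 genes are named, and of each list at most the 3 called genes with the largest difference per comparison; 2 genes of the lists are not reported here. Alternatives were other scalings, normexp (on median signals, as mean signals were not used here), filters, blocks, probe rules and leaving out each array.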

Additional observations from a re-analysis of the deposited data

Results flagged for a closer look

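For 8 of the 16 probes the W20 effect differed between the stages by the limma test of that difference. Of all 25725 probes, 21.9% were called in that test, 10.3% higher and 11.6% lower. The W20 effect at 72 h minus that in NPC was 0.50 for Dnmt3a on A_52_P76146 (adjusted p = 0.00841) and 0.73 on A_52_P30497 (adjusted p = 0.00195). It was 0.66 for Dnmt3b on A_51_P341540 (adjusted p = 0.0022). For Tet2 it was 0.99 on A_52_P502083 (adjusted p = 0.0254) and 1.22 on A_51_P340083 (adjusted p = 0.00997), a probe not well above background in W20 NPC. For Tet3 it was 0.48 on A_52_P173108 (adjusted p = 0.0281). For Tdg it was 0.45 on A_51_P338336 (adjusted p = 0.00466) and 0.41 on A_52_P33287 (adjusted p = 0.0151). Of these 8, the Dnmt3b probe and A_52_P30497 of Dnmt3a kept their call under every alternative run. Stage and slide cannot be told apart.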

How the results depend on the processing

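No probe of the 9 genes reversed a called direction under any alternative run, and the counts over 72 h in W20 and in EGFP cells (6 each) stayed within 1.5 times. With spike-in scaling, on 8 spike-in probes, the count of called genes was 2 (from 4) for W20 against EGFP at 72 h, 2 (from 6) in NPC and 2 (from 5) for the difference of W20 effects, which was 3 with no filter on dim probes. Leaving out 1 array gave 4 to 5 at 72 h, 3 to 6 in NPC, the lowest without EGFP NPC replicate 2 or W20 NPC replicate 1, and 3 to 5 for the difference, the lowest without EGFP NPC replicate 2, either W20 NPC array or EGFP 72 h replicate 1. Over all probes, calls at 72 h were 10929, against 5435 with spike-in scaling and 16532 with no filter; in NPC 11782, against 6534 with spike-in scaling; and for the difference 5623, against 2137 with spike-in scaling, 2913 with no filter, 3135 with array position as a block and 2980 to 3475 without any 1 array other than those of W20 at 72 h. The higher share of calls was 54.9% at 72 h (38.1% with spike-in scaling, 72.9% with no filter on dim probes), and 58% in NPC (66.4% with median scaling, 47.7% with the percentile taken over probes above background on all arrays). With normexp it was 40.3% for EGFP cells over 72 h (from 50.6%) and 62.4% for the difference (from 47.1%), whose median over all probes moved to 0.08 from -0.02. The cause was not tested. The germline gene Tuba3a, at 0.11 in W20 NPC, gave -0.017 with quantile normalization.

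Replicates share numbers in the titles only: deviations of same-numbered arrays correlated between -0.106 and 0.127. With the replicate number as a block, 6 genes were called at 72 h and 5 in NPC, 6 and 7 over 72 h in W20 and EGFP cells, and 5 for the difference. With numbers crossed in NPC, an alternative chosen after seeing the data, 4 were called. A slide block coincides with stage and was not run. Alternatives for the lists and their named genes were also added after seeing the data. Signal near background limits Dnmt3l, Tet2 in NPC, A_52_P30497 of Dnmt3a in NPC and the dim probes of Tet3.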

Other observations

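Of 16 germline genes known to be silenced by promoter methylation in somatic cells, 15 were on the array and 5 were bright enough to be tested. With W20, 2 of these 5 were higher, 0 lower and 3 not called at 72 h, and the same counts held in NPC. Over all genes 49% were called at 72 h and 51.6% in NPC, so these counts are near the background. The median of the 5 was 0.25 at 72 h and -0.01 in NPC. Tex19.1, a germline gene, rose by 0.25 ± 0.059 with W20 at 72 h (adjusted p = 0.0214) and by 0.31 ± 0.059 in NPC (adjusted p = 0.00833). Quantile normalization gave 0.12 (adjusted p = 0.126) and 0.19, and the call at 72 h also ended without either EGFP 72 h array or W20 72 h replicate 1 (adjusted p = 0.0647 to 0.102). Tuba3a, an alpha tubulin of the testis whose probe may share signal with other alpha tubulins, rose by 0.25 ± 0.033 at 72 h, against 0.14 with quantile normalization and 0.21 with spike-in scaling (adjusted p = 0.1), and its call in NPC (0.11 ± 0.033) ended under 17 of 20 alternatives.

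Among 12146 named genes well above background on all 8 arrays, the pattern closest to that of each of 6 genes was sought by the root mean square (RMS) difference of centred levels. Dnmt1, Uhrf1 and Tet1 were left out because their levels spanned less than 0.5 log2 units over the 8 arrays. For Dnmt3b the nearest were Abhd17c (RMS 0.0433) and Mtarc2 (RMS 0.0595), and for Dnmt3a Nfia (RMS 0.0503) and Gm2a (RMS 0.0535). For Tdg they were Hoxa7 (RMS 0.0474) and Pfkfb3 (RMS 0.0478), and for Tet3 Kmt2c (RMS 0.0591) and Jarid2 (RMS 0.0669). Tet2 had Satb1 (RMS 0.112) and Wnt16 (RMS 0.12), and Dnmt3l had Nr6a1 (RMS 0.0573) and Cftr (RMS 0.0687). The median RMS over all candidates was 0.388 to 1.10. All genes share the same 8 arrays, so the likeness is a description of these libraries.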
